A study of Mus musculus with 29 samples.

Results

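The comparison described here was between MPP3 and LT-HSC sorted from the bone marrow of Dnmt3a-mutant mice, across all genes measured by RNA-seq. Members were chosen by the sample titles and column names, and they were 7 of the 29 libraries of the series: 4 of mutant MPP3 and 3 of mutant LT-HSC. The design text of the series counts 3 libraries of mutant MPP3, but 4 are listed and all were used. LT-HSC are long-term haematopoietic stem cells and MPP3 are multipotent progenitors. The mice were young C57BL/6 animals taken 6 weeks after pIpC (polyinosinic-polycytidylic acid, which mimics viral RNA and is commonly used to induce Cre from an interferon-responsive promoter), and both groups are labelled Dnmt3a mutant. The mutant allele, the Cre driver, the sorting gates and the number of animals behind a library are not given in the sources used here. Mutant ST-HSC (short-term stem cells, 4 libraries, whose titles name Dnmt3a without the mutant tag and whose descriptions carry the mutant letter) and mutant MPP4 (4 libraries) entered the fit, and control LT-HSC (4) and control MPP3 (3), which also received pIpC per the labels, served for comparison. The labels do not say that the libraries came from separate animals, so the p-values reflect variation among these libraries only, and that variation may be technical.

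LT-HSC are rare, mostly quiescent cells that can rebuild all blood lineages over a lifetime, and they depend on transcription factors such as Mecom and Hlf. MPP3 are a myeloid-biased progenitor that gives rise mainly to granulocytes and monocytes. Commitment to that fate begins with the transcription factors PU.1 (gene Spi1), C/EBPα, Irf8 and Gfi1, and early granulocyte-monocyte progenitors fill their primary granules with myeloperoxidase, neutrophil elastase, proteinase 3 and cathepsin G. Dnmt3a is a de novo DNA methyltransferase, and its loss in mice is known for prolonging stem cell self-renewal at the expense of differentiation.

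The 7 libraries held 6418833 to 10116135 counts, with 14302 to 17302 genes detected. Levels are CPM, counts divided by library size and scaled by TMM factors, and 3 counts, the most that a count of 0 allows, were worth 0.301 to 0.556 CPM in these libraries. Such limits cover counting error only. MPP3 replicate 1 stood apart from all the other mutant libraries: its first principal component, an axis that carried 21.6% of the variance, was -161.5 against -32.7 to -36.9 in the other MPP3 libraries, and it had the fewest genes detected. Among the mutant libraries that share the estimate of spread, ST-HSC replicate 2 stood apart on the second axis. Without these 2 libraries 520 genes were called in place of 436, and the lists whose number of calls moved by over 1.5 times without them were the immediate-early genes (3 fell in place of 1), the quiescence regulators (2 rose in place of 1), replication (1 rose in place of 0), the glycolytic genes (0 fell in place of 1), the lipid genes (1 fell in place of 0) and the T and NK cell markers (0 rose in place of 1).

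The labels were checked against defining genes. Dnmt3a was at 120, 127 and 137 CPM in LT-HSC replicates 1 to 3. In MPP3 replicates 1 to 4 it was at 222, 92.2, 97.8 and 109 CPM. MPP3 replicate 1 thus lay above the LT-HSC range and the other MPP3 libraries below it (log2 difference 0.01 ± 0.27 SE, adjusted p = 0.997, edgeR). Under the alternatives the log2 difference ran from -0.43 to 0.334. Control libraries held 81.9 to 167 CPM in LT-HSC and 97.4 to 123 CPM in MPP3, and a gene total cannot show which allele a transcript came from. Slamf1, the CD150 antigen of LT-HSC, was at 31.1, 34.9 and 54.1 CPM in LT-HSC and at 0, 3.52, 1.07 and 1.01 CPM in MPP3. The groups did not overlap, as held for 15.5% of all genes tested, and the edgeR fit gave an adjusted p of 0.107. The spread estimate takes in ST-HSC replicate 2, where Slamf1 was at 406 CPM against 0.776 to 1.83 CPM in the other ST-HSC libraries. Cd48, absent from the surface of LT-HSC and present on MPP3, was at 3.31, 1.5 and 0.114 CPM in LT-HSC and at 179, 40.2, 52.0 and 81.6 CPM in MPP3 (log2 difference 5.70 ± 0.87, adjusted p = 0.000969), and the log2 difference was 6.72 without LT-HSC replicate 1 and 5.09 without MPP3 replicate 1. Cd34 rose 2.53-fold to 282 ± 61.8 CPM (SD, n = 4) from 110 ± 15.4 CPM (SD, n = 3). Ly6a ranged from 4.63 CPM in MPP3 replicate 1 to 104 CPM in replicate 4. Kit and Ly6a, which define the stem and progenitor gate as a whole, and Flt3, the MPP4 antigen, did not pass the test (adjusted p = 0.213, 0.979 and 0.0505), with group means of 669 and 498, 43.6 and 41.8, and 42.7 and 81.5 CPM in LT-HSC and MPP3.

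Of 14766 genes tested, 436 were called at an adjusted p below 0.05 (2.95%), 252 of them higher in MPP3 (1.71%) and 184 lower (1.25%). Rises were larger than falls. The median log2 difference was 3.43 among the genes called higher and -2.11 among those called lower, against 0.004 over all genes tested, and 180 rises but 97 falls were at least 4-fold. For 34 of the genes that rose no count was found in any LT-HSC library, and for 11 of those that fell none was found in any MPP3 library. The 7 libraries did not overlap between the groups for 2294 genes tested (15.5%), and this held for 244 of the genes called higher and 183 of those called lower. Leaving out an LT-HSC library lowered the number of calls to 212 (replicate 1), 215 (replicate 2) and 164 (replicate 3). Within the libraries of a single column-header prefix, of which there were 2 with at least 1 library of every mutant population in each, 37 and 86 genes were called. With library totals alone in place of TMM factors the median over all genes moved to -0.15 and the split of calls to 207 higher and 224 lower. No called gene that remained testable changed its sign under any of the 25 alternatives.

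**Figure D1:**
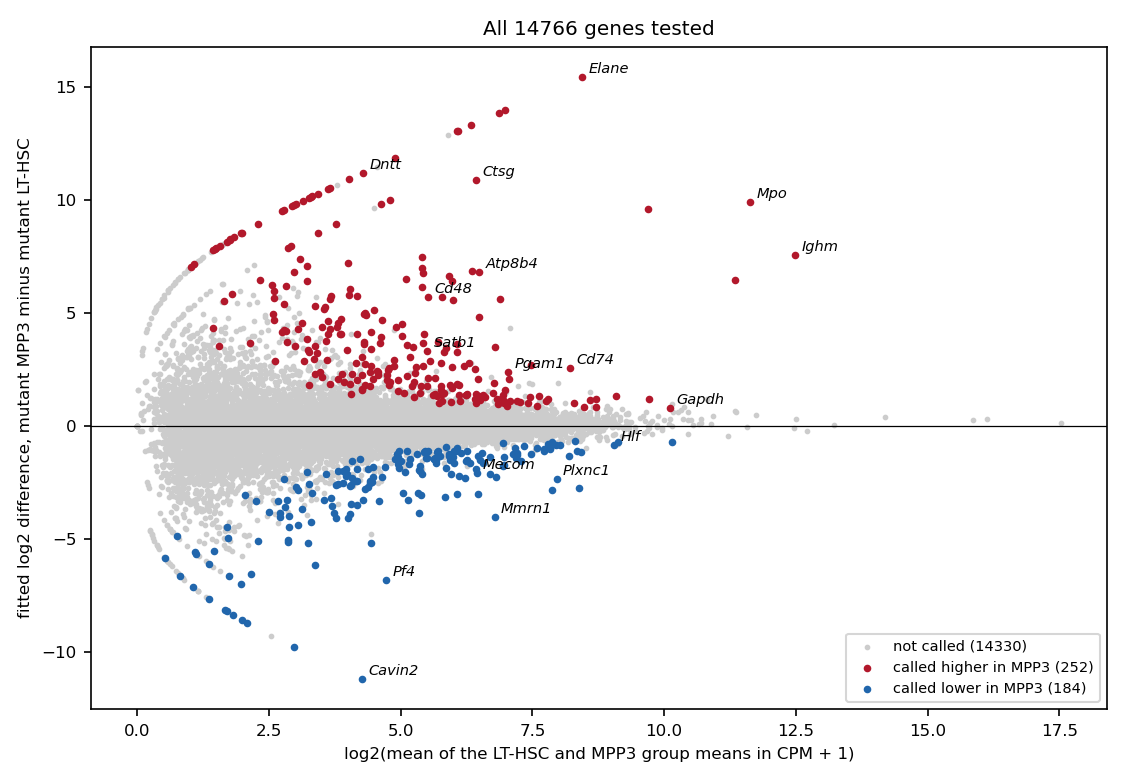
Fitted log2 difference between mutant MPP3 and mutant LT-HSC (vertical axis) against log2 of the mean level (horizontal axis, CPM + 1) for the 14766 genes tested, with the 252 genes called higher in red, the 184 called lower in blue and the rest in grey. Mpo and Elane lie at the upper right with high levels in MPP3, Pf4 and Cavin2 lie at the lower edge, and the curved outer lines are formed by genes with no count in the lower group, whose fitted difference depends on the prior count.

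The primary granule genes Mpo, Elane and Ctsg were among the largest rises in MPP3. Mpo, which encodes myeloperoxidase, was at 6.11, 2.53 and 11.2 CPM in LT-HSC and at 9604, 5131, 7127 and 3579 CPM in MPP3. The lowest MPP3 library was far above the highest LT-HSC library, and the fitted difference was 948-fold (log2 9.89 ± 0.68, adjusted p = 9.78e-08), or 1434-fold without LT-HSC replicate 3. Elane, neutrophil elastase, had no count in any LT-HSC library and was at 1037, 564, 804 and 376 CPM in MPP3, which is at least 2109-fold higher when LT-HSC are set at 3 counts per library (adjusted p = 0.000198). Ctsg, cathepsin G, had 0, 0 and 0.229 CPM in LT-HSC and 160, 162, 230 and 128 CPM in MPP3, a ratio of 2354 with a 95% counting interval of 651.7 to 19440. Prtn3, proteinase 3, was already present in LT-HSC, at 13, 19.8 and 19.7 CPM, and rose 11.4-fold to 302, 167, 216 and 126 CPM (adjusted p = 0.000969). In GRCm38 Mpo lies on chromosome 11 (87793581 to 87804413), Elane on chromosome 10 (79886247 to 79888215) and Ctsg on chromosome 14 (56099881 to 56102574).

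The upstream sequences of these 4 genes are shown because the genes rose together, and each holds a short motif before its RefSeq start site (GRCm38.p6). The lines give up to 30 bases before and 14 after the match nearest the start, from 5′ to 3′ on the strand of the gene and outside annotated exons, with the core GAGGAA, the purine-rich sequence bound by PU.1, in capitals. Elane and Prtn3 are neighbours on chromosome 10.
Mpo, chr11:87793534-87793579, + strand: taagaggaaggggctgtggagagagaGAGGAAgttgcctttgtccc
Elane, chr10:79886197-79886246, + strand: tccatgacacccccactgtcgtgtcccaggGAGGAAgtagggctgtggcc
Prtn3, chr10:79879542-79879591, + strand: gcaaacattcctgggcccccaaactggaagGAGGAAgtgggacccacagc
Ctsg, chr14:56102771-56102820, - strand: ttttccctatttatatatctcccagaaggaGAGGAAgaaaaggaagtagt

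The match in capitals starts 224 bases before the RefSeq start in Mpo, 85 in Elane, 95 in Prtn3 and 216 in Ctsg. The Mpo line holds another GAGGAA, farther from the start and left in lower case. GAGGAA on either strand was found in the 250 bases upstream for 23.1% of the 27025 promoters in the table and for 22.6% of the 10548 tested genes that have one. It was found for 34.7% of the 167 genes called higher and 27.7% of the 137 called lower that have a promoter there, and for 9 of the 12 called genes of the granule and early myeloid list that have one. TTGCNNAA, a C/EBP core, was found for 11.4% of genes called higher and 5.1% of those called lower against 7.5% of tested genes and 9.5% of all promoters. TGTGGT, a RUNX core, was found for 18% and 9.5% against 11.1% and 14.1%. AGATAA, the core bound by GATA factors, was found for 6.6% and 6.6% against 6.1% and 10.2%. In the same 12 granule and early myeloid genes TTGCNNAA was found for 1, TGTGGT for 5 and AGATAA for 0. All were searched on both strands and none contains another. These shares describe letters, and binding was not measured.

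Of 20 primary granule and early myeloid effector genes tested, 20 were higher (19 with library totals alone, 18 without the 2 libraries that stood apart) and 14 rose, with a median log2 difference of 3.68. Ly6c2, a surface antigen of monocytes and their precursors, was at 2.71, 1.27 and 0 CPM in LT-HSC and at 197, 98.5, 184 and 164 CPM in MPP3 (adjusted p = 0.000681). Clec12a, an inhibitory C-type lectin receptor of myeloid cells, rose 84.2-fold from 1.41 ± 0.631 to 122 ± 37.0 CPM. Igsf6, an immunoglobulin-domain receptor whose gene overlaps Mettl9 on the other strand, rose 71.4-fold, from 0.701 to 1.84 CPM in LT-HSC to 27.4 to 139 CPM in MPP3. Plac8 and Nkg7, a regulator of myeloid differentiation and a granule membrane protein, rose 12.4-fold and 6.20-fold. Over the fits that left out 1 library, between 11 and 14 list members rose. Without LT-HSC replicate 1, Ly6c2 was 243-fold higher in place of 117-fold and Plac8 19.4-fold. Gm11505, which rose 778-fold (1391-fold without LT-HSC replicate 3), lies antisense within Mpo, and reads of the pair cannot be told apart because strand-specific counting is not stated.

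Genes of mature neutrophils did not follow the primary granule genes. Of 14 markers of maturing and mature neutrophils tested, 8 were higher, 6 were lower and 0 were called, and the summed level ran from 113 to 506 CPM in LT-HSC and from 72.4 to 708 CPM in MPP3. S100a8, a cytosolic calcium-binding protein of mature neutrophils, was at 17.1, 67.2 and 5.83 CPM in LT-HSC and at 80.5, 115, 16.7 and 12.8 CPM in MPP3 (adjusted p = 0.793). Ngp, a secondary granule protein, was at 43.4, 135 and 24.4 CPM and at 71.6, 140, 8.60 and 0 CPM (adjusted p = 0.961). For both the groups overlapped.

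Among 12 transcription factors of the granulocyte-monocyte lineage tested, 11 were higher in MPP3 (10 with library totals alone, 9 without the 2 libraries that stood apart) and 3 rose, with a median log2 difference of 1.11. Irf8, required for monocyte and dendritic fates, was at 5.41, 0.805 and 2.29 CPM in LT-HSC and at 30.2, 37.5, 49.8 and 60.3 CPM in MPP3, a 15.3-fold rise (adjusted p = 0.0109) that was 27.9-fold without LT-HSC replicate 1. Spi1 rose 2.58-fold, from 26.4 ± 7.82 to 69.3 ± 12 CPM (adjusted p = 0.0116). Gfi1, a repressor needed for neutrophil development, rose 6.95-fold from 4.14 ± 3.19 to 29.4 ± 11.2 CPM (adjusted p = 0.0396), and it lost the call in 6 of 7 fits that left out a library (adjusted p up to 0.128). Irf8 was not called without LT-HSC replicate 2 or 3 and Spi1 not without LT-HSC replicate 1 or 3 (adjusted p up to 0.0818 and 0.0925). Cebpa was at 5.09 ± 3.64 and 18.6 ± 6.12 CPM and did not pass the test (adjusted p = 0.158). The fold differences of these regulators were smaller than those of Mpo, Elane and Ctsg in the same libraries.

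All 17 myeloid cytokine and Fc receptor genes tested were higher in MPP3, and 8 of them rose, with a median log2 difference of 1.64. Csf2rb, the shared signalling chain of the receptors for GM-CSF, IL-3 and IL-5, was at 23.6, 17.3 and 10.5 CPM in LT-HSC and at 91.8, 90.7, 132 and 109 CPM in MPP3 (6.08-fold, adjusted p = 0.000432). Ifngr1, a chain of the interferon-gamma receptor, rose 2.63-fold, and Fcer1g, the signalling chain of Fc receptors, rose 3.85-fold. Il1r1, the interleukin-1 receptor, rose 3.12-fold to 27.8 ± 11.3 CPM, and it was higher still in MPP4, at 76.7 to 130 CPM. Csf3r, the receptor for G-CSF, rose 2.08-fold to 206 ± 41.7 CPM and Csf1r, the receptor for M-CSF, rose 10.7-fold (17.5-fold without LT-HSC replicate 3) to 38.0 ± 15 CPM. Over the fits that left out 1 library between 1 and 7 receptors were called. Ifngr1, Fcer1g, Il1r1, Csf3r and Csf1r lost the call in 1, 2, 4, 5 and 6 of the 7 fits (adjusted p up to 0.0655, 0.0962, 0.147, 0.181 and 0.184). With library totals alone 15 of 17 were higher and 4 rose, and without the 2 libraries that stood apart 16 were higher.

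Genes of long-term stem cells fell together. Of 27 tested, 26 were lower in MPP3 and 17 fell, with a median log2 difference of -2.07, and over the fits that left out 1 library between 9 and 15 fell. The list was drawn up with earlier results of these data known, so its count describes the libraries. Mecom, a zinc-finger factor required for stem cell maintenance, was at 144, 122 and 149 CPM in LT-HSC and at 35.8, 36.9, 28.7 and 32.4 CPM in MPP3, with an adjusted p of 0.000211. The lowest LT-HSC library was well above the highest MPP3 library. Mmrn1, which encodes the adhesive protein multimerin, was at 184, 184 and 246 CPM and at 2.23, 22, 12.2 and 14.5 CPM, which is 16.2-fold lower in MPP3. Mycn, the Myc family member of stem cells, was 8.18-fold lower (12.4-fold without MPP3 replicate 2), at 8.94 ± 6.60 CPM in MPP3 against 72.5 ± 12.6 CPM in LT-HSC. Hlf, the most abundant member in both groups, was at 626 to 718 CPM in LT-HSC and at 336 to 412 CPM in MPP3, only 1.81-fold lower (adjusted p = 0.00792), and it was at 749 to 1056 CPM in ST-HSC.

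Receptors that hold stem cells in the niche fell as well. Tek, the receptor for angiopoietin, was 4.84-fold lower and its ligand Angpt1 was 2.50-fold lower, at 168 ± 49.5 CPM in MPP3 against 413 ± 30.3 CPM in LT-HSC (adjusted p = 0.00857 and 0.00242). Tgfbr3, a TGF-beta co-receptor, was 4.96-fold lower, Itga6, a laminin-binding integrin chain, 2.39-fold lower, and Esam, an endothelial adhesion protein shared by stem cells, 5.34-fold lower. Hoxb5, a marker of LT-HSC, was at 5.11, 19.2 and 18.4 CPM and at 0.185, 0.971, 1.61 and 1.68 CPM (adjusted p = 0.0388). Meis1, a Hox cofactor, was 2.14-fold lower and Gata2 2.38-fold lower. The calls of Hoxb5 and Gata2 were lost in 6 of 7 fits that left out a library (adjusted p up to 0.149 and 0.162), and those of Meis1, Tgfbr3, Itga6 and Esam were lost without 1 or 2 of the LT-HSC libraries (adjusted p up to 0.0568, 0.0566, 0.0688 and 0.0630).

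**Figure D2:**
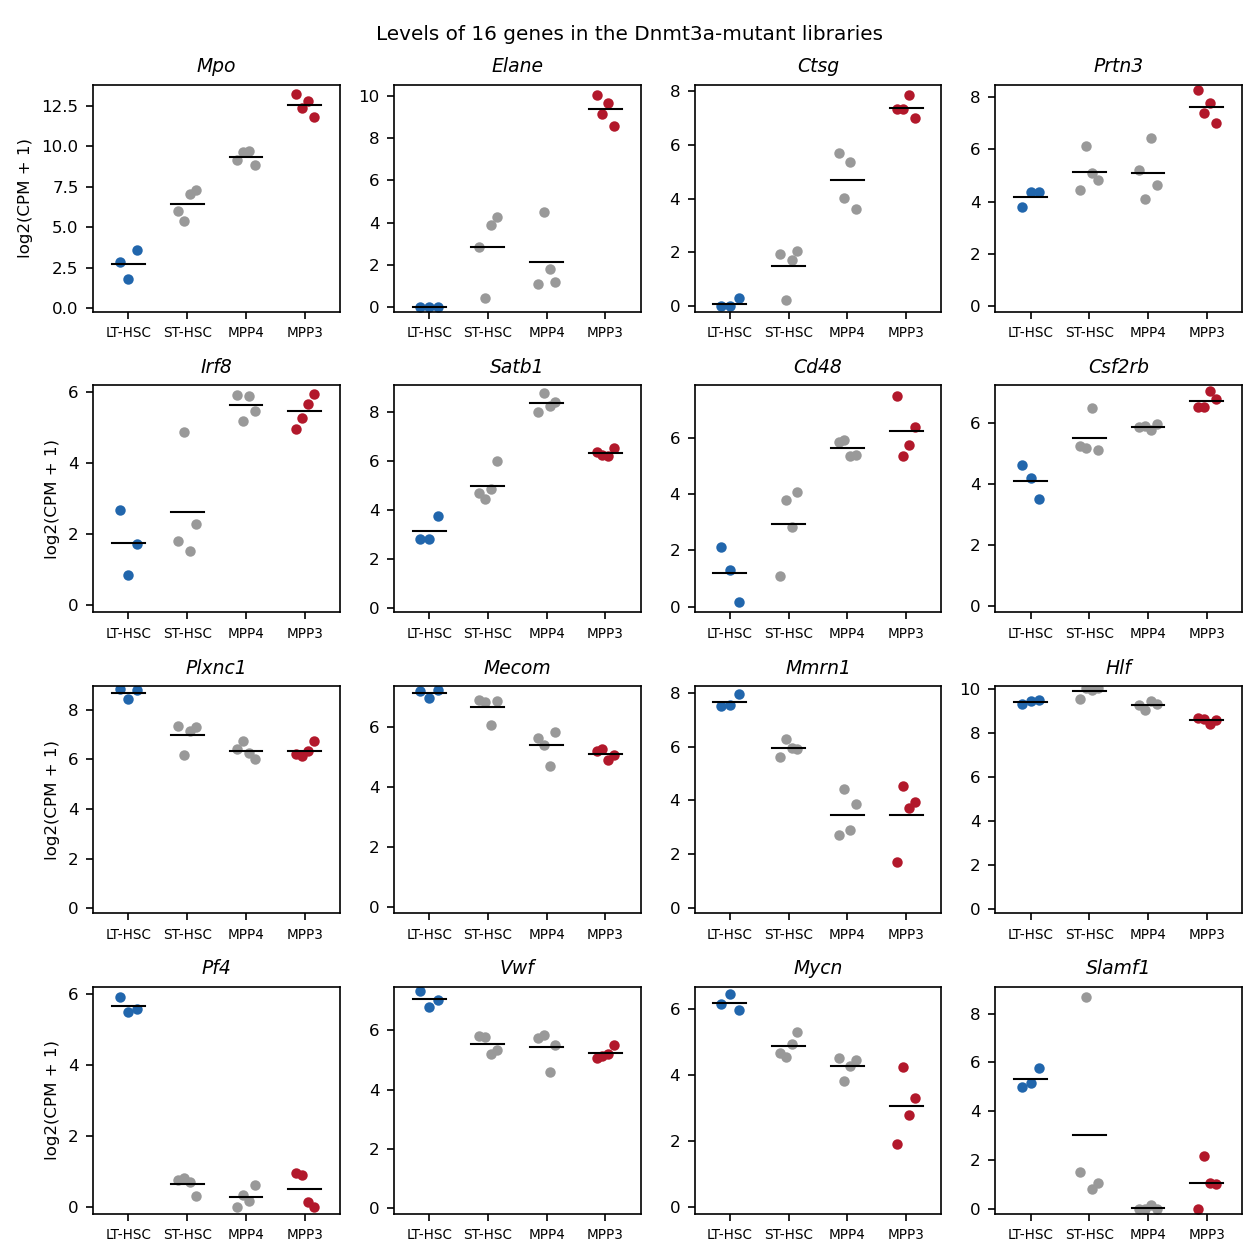
Level of 16 genes in each mutant library as log2(CPM + 1), with LT-HSC in blue, MPP3 in red, ST-HSC and MPP4 in grey, 1 point per library and a bar at the group mean. Mpo and Elane are near the floor in LT-HSC and highest in MPP3, Plxnc1 and Mecom run the other way, Pf4 is high in LT-HSC alone, and the single high ST-HSC point of Slamf1 is replicate 2.

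Megakaryocyte and platelet genes were also lower in MPP3, for each of the 19 tested, and 8 fell, with a median log2 difference of -2.73 (-2.48 with genes at 0 set to their bound). A fraction of LT-HSC is known to carry platelet transcripts before any commitment. Pf4, platelet factor 4, was at 59.5, 44.3 and 46.8 CPM in LT-HSC and at 0.927, 0.850, 0.107 and 0 CPM in MPP3 (112-fold lower, adjusted p = 0.00012), or 168-fold lower without MPP3 replicate 2. Cavin2, a caveola coat protein of platelets, was at 35.8, 28.1 and 45.4 CPM in LT-HSC and had no count in any MPP3 library, which is at least 92.2-fold lower. Vwf, von Willebrand factor, fell 3.71-fold from 134 ± 25.6 to 36.6 ± 5.43 CPM, and Itgb3, a chain of the fibrinogen receptor, fell 7.76-fold. Pf4 was as low in mutant ST-HSC, at 0.240 to 0.751 CPM, and in MPP4, at 0 to 0.543 CPM. Over the fits that left out 1 library between 6 and 7 members fell. Several of these genes stand in the list of genes known to rise in aged stem cells, of which 14 of 20 tested were lower and 6 fell, among them Aldh1a1, a retinaldehyde dehydrogenase, at 80.0, 72.3 and 70.5 CPM against 2.41, 5.10, 6.56 and 6.73 CPM. Of 17 Hox genes and cofactors tested, 14 were lower and 3 fell, among them Meis1 and Hoxb5.

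The other genes with the strongest evidence were of mixed function. Atp8b4, a phospholipid flippase subunit, had the smallest p of all and was at 2.60, 0.921 and 1.03 CPM in LT-HSC and at 194, 152, 209 and 151 CPM in MPP3 (112-fold, adjusted p = 8.06e-08). Cd53, a leukocyte tetraspanin, rose 9.65-fold, and Rab44, a large Rab GTPase, rose 100.3-fold. Chdh, the choline dehydrogenase of mitochondria, rose 177-fold from 0.454 ± 0.418 to 82.6 ± 45.6 CPM, and BC035044, a gene of the C-type lectin cluster that overlaps other loci, rose 90.6-fold. On the lower side, Plxnc1, a semaphorin receptor, fell 5.11-fold from 415 ± 55.5 to 82.2 ± 16.7 CPM. F2r, the thrombin receptor, fell 4.72-fold, Tbxas1, thromboxane synthase, fell 4.41-fold, and Srgap3, a GTPase-activating protein, fell 4.32-fold. Grb10, an imprinted adaptor of growth factor receptors, fell 8.02-fold and Nbea, neurobeachin, fell 36.3-fold to 1.07 ± 1.21 CPM. Adgrg1 and Nedd4, an adhesion receptor and a ubiquitin ligase, were among the 5 most abundant genes that fell, at 869 ± 47.2 and 425 ± 22.6 CPM in MPP3. Folds from a few counts moved most when 1 library was left out: without LT-HSC replicate 3 Chdh was 350.0-fold and BC035044 283-fold higher, without LT-HSC replicate 1 Rab44 was 215-fold and Atp8b4 175-fold higher, and without MPP3 replicate 4 Nbea was 69.7-fold lower. Adgrg1 was not called in any of the fits that left out a library (adjusted p up to 0.208), and Nedd4 not in 4 of them (up to 0.0978).

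Erythroid genes went in both directions. Of 24 tested, 17 were higher and 7 lower, 4 rose and 3 fell, and the median log2 difference was 1.45. Ermap, an erythroid membrane protein, was at 10.5, 5.18 and 12.6 CPM in LT-HSC and at 189, 73.8, 96.8 and 56.9 CPM in MPP3 (10.9-fold, adjusted p = 0.00331). Rhag, the Rh-associated ammonia channel, rose 11.7-fold, Car1, a carbonic anhydrase of red cells, rose 6.81-fold (15.5-fold without LT-HSC replicate 1), and Tfrc, the transferrin receptor, rose 2.58-fold. Zfpm1, the GATA cofactor FOG-1, fell 2.59-fold, Gfi1b fell 2.66-fold, and Car2, a carbonic anhydrase shared with stem cells, fell 2.21-fold from 468 ± 89.5 to 215 ± 27.7 CPM. The master regulators Gata1 and Klf1 did not pass the test (adjusted p = 0.685 and 0.414), at 14.7 ± 9.05 and 2.99 ± 2.40 CPM in LT-HSC and 7.25 ± 5.17 and 8.10 ± 3.93 CPM in MPP3. Ermap in mutant MPP4 was at 0.715 to 4.64 CPM, below every MPP3 library. These 4 rises were not particular to MPP3, since mutant ST-HSC held the genes at similar levels. Means of Ermap, Rhag, Car1 and Tfrc were 123, 22.9, 154.5 and 80.7 CPM in mutant ST-HSC. In MPP3 they were 104, 17.4, 134.6 and 98.3 CPM. Only Ermap and Rhag kept the call in each fit that left out a library, while Car1, Tfrc, Gfi1b, Zfpm1 and Car2 lost it in 4, 2, 5, 1 and 1 of 7. Of 10 red cell and erythroblast markers tested, 10 were higher and 0 were called. Their summed level ran from 413 to 891 CPM in LT-HSC and from 604 to 2433 CPM in MPP3, none was at 0 in either group, and their part in the erythroid rises was not tested.

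Lymphoid priming genes were higher in MPP3 for 22 of 25 tested, and 12 rose while 2 fell, with a median log2 difference of 2.93. Between 5 and 12 rose and between 0 and 2 fell when 1 library was left out, with 5 rises without LT-HSC replicate 2 and 7 without replicate 1 or 3. Dntt, terminal transferase, had no count in any LT-HSC library and was at 38.9, 29.7, 43.9 and 35.7 CPM in MPP3, at least 112-fold higher (adjusted p = 4.55e-06). It was nonetheless much lower than in mutant MPP4, at 242 to 348 CPM. Satb1, a chromatin organiser of lymphoid progenitors, rose 9.79-fold to 80.6 ± 8.77 CPM and was also higher in MPP4, at 260 to 448 CPM. Blnk, an adaptor of B cell receptor signalling, rose 22.4-fold (36.6-fold without LT-HSC replicate 1) to 60.3 ± 12.8 CPM and stood above MPP4, at 9.44 to 28.8 CPM. Il7r was at 0 in LT-HSC and at 14.5, 14.1, 28.2 and 13.7 CPM in MPP3 (at least 53.4-fold, adjusted p = 0.0237), a call that was lost without any 1 of the LT-HSC libraries (adjusted p up to 0.107). Mef2c and Bcl11a, factors of lymphoid fate that stem cells also express, fell 1.98-fold and 1.65-fold, and each lost the call in 6 of 7 fits that left out a library (adjusted p up to 0.170 and 0.278).

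Genes of committed B cells and antibody-secreting cells were higher as well. Their list shares members with the lymphoid list, among them Ighm and Pax5, so the counts of these lists are not independent. Of 16 of their markers tested, 16 were higher and 12 rose, with a median log2 difference of 4.54, and the summed level of the list was 101 to 359 CPM in LT-HSC and 5301 to 39760 CPM in MPP3. Ighm, the mu heavy chain, was at 173, 5.52 and 4.00 CPM in LT-HSC and at 6720, 3408, 12000 and 23620 CPM in MPP3. Igkc, the kappa constant region, was at 78.8, 3.80 and 93.7 CPM and at 1991, 1081, 3650 and 13930 CPM. Counts of immunoglobulin genes are uncertain, since their segments resemble each other, and Igkv15-103, a kappa variable segment with no count in LT-HSC, was at 112 to 518 CPM in MPP3. Single-copy genes of B cells rose too: Cd79a, a chain of the B cell receptor, was at 3.11, 1.73 and 1.14 CPM and at 150, 85.9, 89.4 and 101 CPM (adjusted p = 0.000432), Pax5 rose 23.3-fold, Irf4 16.8-fold and Jchain, the joining chain of secreted antibody, 48.5-fold. Without MPP3 replicate 4 the fold of Jchain was 25.7 and without LT-HSC replicate 3 it was 100.2, while Ighm, at 186.5-fold with all libraries, was at 2337-fold without LT-HSC replicate 1 and Igkc, at 86.8-fold, was at 37.7-fold without MPP3 replicate 4. Mzb1, an endoplasmic reticulum protein of antibody-secreting cells, was at 0 in LT-HSC and at 16.7, 1.94, 7.31 and 19.6 CPM in MPP3. Genes of early B cell precursors, chosen after their values were seen, rose as well: Igll1, a surrogate light chain, was at 0.1, 0 and 0 CPM in LT-HSC and at 37.8, 37.6, 68.5 and 46.0 CPM in MPP3, Vpreb1 was at least 47.4-fold higher, and Lef1 rose 11.1-fold. Between 8 and 12 of the markers rose in the fits that left out 1 library, and Pax5, Jchain and Vpreb1 lost the call without 1 or 2 LT-HSC libraries (adjusted p up to 0.0628, 0.0641 and 0.0523). In bulk RNA a few cells with many transcripts and many cells with few cannot be told apart. The part of such cells in the lymphoid, endoplasmic reticulum and MHC results was not tested, and 419 genes were called when immunoglobulin genes were left out.

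Markers of other lineages had smaller sums in MPP3 than the B cell markers. Of 9 tested markers of basophils, mast cells and eosinophils 8 were higher and 5 rose, and the list summed to 9.27 to 20.3 CPM in LT-HSC and 169 to 314 CPM in MPP3, with Mcpt8, Prss34, Gzmb, Cma1, Tpsb2, Epx and Prg3 at 0 in LT-HSC. Epx, eosinophil peroxidase, was at 29.3, 39.1, 14 and 10.4 CPM in MPP3, and Prg2, eosinophil major basic protein, was at 55.8, 153, 62.7 and 57.9 CPM against 1.70, 0 and 0.114 CPM in LT-HSC. Mcpt8, a basophil protease, was at 38.0, 10.1, 3.12 and 5.16 CPM in MPP3, Ccl3, a chemokine, rose 16.6-fold, and Hdc, which makes histamine, rose 13-fold. The most abundant marker in LT-HSC, Cpa3, did not pass the test (4.69 ± 2.75 against 31.8 ± 10.4 CPM, adjusted p = 0.123). Of 13 macrophage and monocyte markers tested 13 were higher and 3 rose, namely Cd68, Csf1r and Ctss, with Marco and Fcgr1 at 0 in LT-HSC and a sum of 38.1 to 45.7 CPM in LT-HSC and 162 to 345 CPM in MPP3. Cd68, a lysosomal membrane protein, was 4.06-fold higher and Ctss, cathepsin S, 8.36-fold higher. Of these genes Hdc was called in none of the fits that left out a library, and Csf1r, Ctss, Cd68 and Prg2 lost the call in 6, 6, 3 and 2 of 7 (adjusted p up to 0.198 for Hdc). The fold of Hdc was 21.9 without LT-HSC replicate 3, that of Cd68 2.63 without MPP3 replicate 1 and that of Ctss 5.07 without MPP3 replicate 4. Trbc1, a T cell receptor constant region, was the only T and NK cell marker called, at 7.79, 3.28, 0.860 and 1.79 CPM in MPP3 and 0 in LT-HSC, while the list summed to 14.7 to 16.6 and 22.8 to 30.7 CPM and Cd3e, Cd3g, Trbc1, Trac, Ncr1, Klrd1, Gzma, Gzmb and Prf1 were at 0 in LT-HSC. Trbc1 was tested in 4 of 7 fits that left out a library and lost the call in 3 of them (adjusted p up to 0.184). Of 12 dendritic cell markers tested 9 were higher and 2 rose, namely Irf8 and Itgax, with sums of 274 to 285 and 232 to 483 CPM. Among 11 stromal and endothelial markers tested 1 was called: Col1a2, a collagen chain, fell from 12.2 ± 6.28 to 0.526 ± 0.740 CPM and the list summed to 178 to 226 and 185 to 307 CPM. Col1a2 lost the call without LT-HSC replicate 1 or 3 (adjusted p up to 0.0803). Beside these lists, the share called over all genes tested was 2.95%, with 1.71% higher and 1.25% lower. The single calls in the T and NK cell list and the stromal list are not read as results about those lists. Some of these markers, among them Irf8 and Csf1r, also stand in the regulator and receptor lists above. Whether such cells were present, and their part in the granule and receptor results, was not tested.

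**Figure D3:**
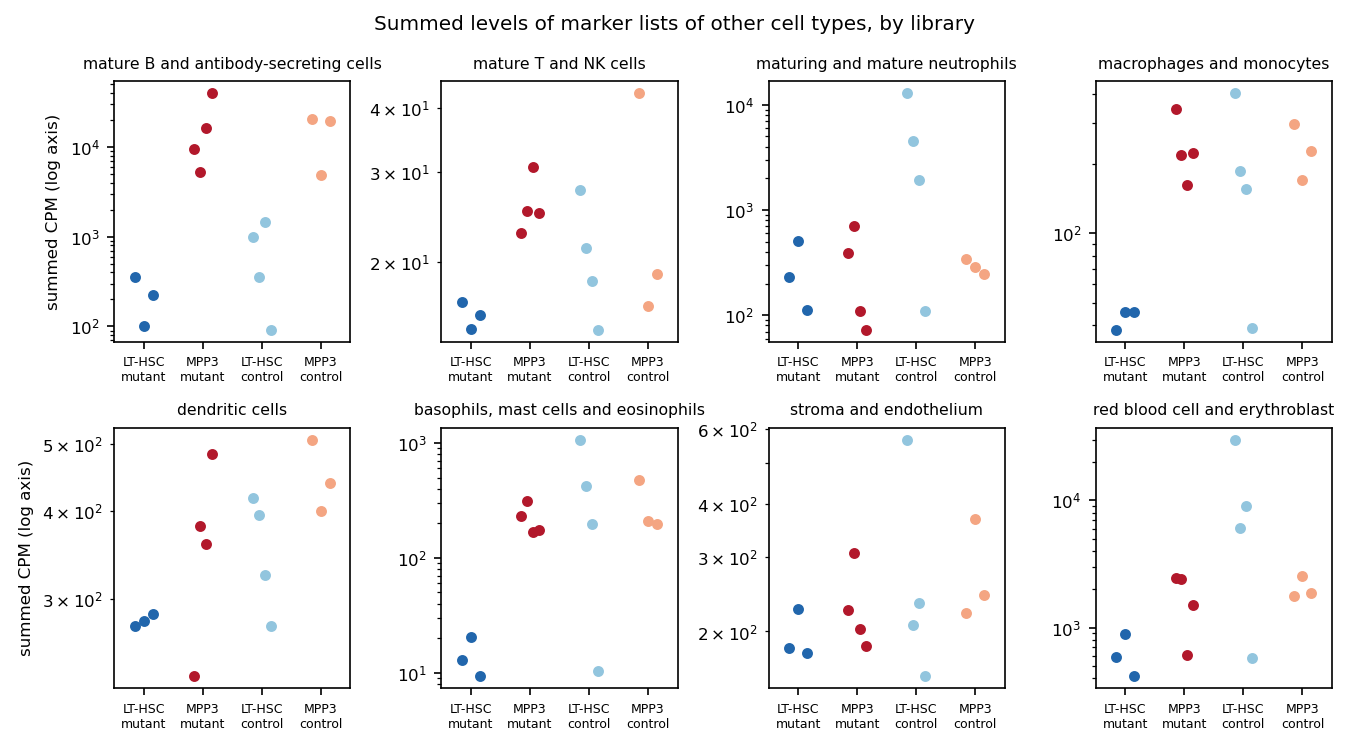
Summed level in CPM (log axis) of the marker list of each of 8 other cell types, with 1 point per library, for mutant LT-HSC (blue), mutant MPP3 (red), control LT-HSC (light blue) and control MPP3 (orange). B cell markers are at least 4832 CPM in every MPP3 library and at most 1479 CPM in every LT-HSC library, and neutrophil and red cell markers are highest in control LT-HSC replicates 1 to 3.

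Genes of mitosis were higher in MPP3. All 28 genes of G2 and mitosis were higher (27 of 28 with library totals alone), against 7426 of the 14766 genes tested, with a median log2 difference of 0.72, and 3 rose. Cenpe, a kinetochore motor, was at 67.5, 101 and 96.9 CPM in LT-HSC and at 155, 184, 176 and 153 CPM in MPP3 (1.86-fold, adjusted p = 0.0161), Ube2c, a ubiquitin-conjugating enzyme of mitotic exit, rose 2.98-fold, and Ccnb2, cyclin B2, rose 2.53-fold. Without a single library, between 0 and 3 of them were called. Mki67, the proliferation antigen, was at 961 ± 200.5 and 1488 ± 56.5 CPM and did not pass the edgeR test (adjusted p = 0.0654). Its groups did not overlap, as held for 15.5% of all genes tested. Of 32 replication and S phase genes 26 were higher and 0 were called, with the smallest p for Rrm2, a ribonucleotide reductase subunit (adjusted p = 0.0770), and for Pole, a DNA polymerase (0.154). Ccnd2, a D-type cyclin, fell 2.02-fold from 302 ± 28.9 to 152 ± 23 CPM, and Txnip, which restrains proliferation and glucose uptake, fell 2.42-fold. Ccnd2 was the only one called of 11 D and E cyclins and their kinases, and Txnip and Gfi1 the only ones of 20 quiescence regulators. Of 30 genes of the Myc family and ribosome biogenesis 21 were higher (17 with library totals alone) and Mycn alone was called. Over all genes tested 2.95% were called. Ccnd2 and Txnip lost the call without 1 or 2 of the LT-HSC libraries (adjusted p up to 0.0654 and 0.120).

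Glycolytic genes split. Of 23 tested, 13 were higher and 10 lower, and 3 rose while 1 fell. For this list and those below, the share called over all genes tested was 2.95%. It was 1.71% for higher and 1.25% for lower, and 7426 of the 14766 genes were higher. Hk3, a hexokinase of myeloid cells, was at 11.2, 13.8 and 7.32 CPM in LT-HSC and at 122, 69.7, 80.3 and 52.3 CPM in MPP3 (7.39-fold, adjusted p = 0.000104). Pgam1, phosphoglycerate mutase, was at 37.1, 46.5 and 40.4 CPM and at 328, 116, 218 and 217 CPM (5.24-fold, adjusted p = 0.000432). Gapdh rose 1.74-fold to 1404 ± 89.7 CPM, and Slc2a3, a glucose transporter, fell 1.86-fold. The calls of Gapdh and Slc2a3 were lost in 2 and 6 of 7 fits that left out a library (adjusted p up to 0.0976 and 0.304). Nuclear genes of oxidative phosphorylation were higher for 32 of 36 tested (29 of 36 with library totals alone), with a median log2 difference of 0.48 and 0 called. Atp5g1 and Cox4i1 had the smallest p (adjusted p = 0.0653 and 0.0716), at 85.3 ± 13.5 and 52.8 ± 8.38 CPM in LT-HSC and 143 ± 17.3 and 101 ± 24.0 CPM in MPP3. Genes of endoplasmic reticulum folding were higher for 26 of 29, and 5 rose. Calr, the chaperone calreticulin, was at 294, 275 and 192 CPM and at 790, 519, 589 and 431 CPM (adjusted p = 0.0107), P4hb, a protein disulphide isomerase, rose 2.01-fold, Edem1 2.40-fold, Sdf2l1 3.87-fold and Xbp1, the transcription factor of the unfolded protein response, 2.60-fold. All but Calr lost the call in 5 of 7 fits that left out a library, and Calr lost it without LT-HSC replicate 3 (adjusted p = 0.0914). The B cell marker sum above, whose list also holds Xbp1, moved in the same direction as these genes. Its part in them was not tested.

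Interferon-stimulated genes were lower for 31 of 43 tested, and 5 fell, with a median log2 difference of -0.22 and 2 to 4 falls when 1 library was left out. Ifi44 was at 22, 14.7 and 16.4 CPM in LT-HSC and at 4.08, 3.28, 4.51 and 4.71 CPM in MPP3 (4.32-fold lower, adjusted p = 0.00426). Iigp1, an interferon-inducible GTPase, fell 5.42-fold, Ifitm3, which restricts viral entry, fell from 313 ± 14 to 177 ± 19.0 CPM, and Irgm2 fell 2.23-fold. Ifitm3 was not called in 6 and Irgm2 in 7 of 7 fits that left out a library (adjusted p up to 0.127 and 0.161). Of 19 MHC genes tested, Cd74, the invariant chain of class II, rose 5.85-fold, from 64.4 to 105 CPM in LT-HSC to 305 to 790 CPM in MPP3, and the other 18 were not called. Nr4a1, an orphan nuclear receptor that holds stem cells in quiescence, fell 2.55-fold and was the only one of 27 immediate-early genes called, a call lost in 5 of 7 fits that left out a library (adjusted p up to 0.161). Among 23 adhesion and homing genes 3 rose and 4 fell. Itgal, the LFA-1 integrin chain, rose 9.61-fold and S1pr3, a sphingosine-1-phosphate receptor, rose 11.8-fold (24.3-fold without LT-HSC replicate 2), while Angpt1, Tek, Itga6 and Esam fell. Sphk1, which makes sphingosine-1-phosphate, rose 3.54-fold to 13.4 ± 4.05 CPM. These last rises were less stable, with the call lost in 3, 4 and 6 of 7 fits that left out a library for Itgal, S1pr3 and Sphk1 (adjusted p up to 0.107, 0.133 and 0.204). Of the 12 genes of the DNA methylation machinery tested 0 were called at an adjusted p below 0.05. Tet1, a 5-methylcytosine dioxygenase, had the smallest p (adjusted p = 0.167), at 198.5 ± 29.6 CPM in LT-HSC and 137 ± 25.9 CPM in MPP3. Of 23 TGF-beta and BMP genes 16 were lower and Tgfbr3 alone was called, and of 19 sphingosine, lipid and vesicle genes S1pr3 and Sphk1 rose. Over all genes tested 2.95% were called, 1.71% higher and 1.25% lower. A single call in a list of this size is not read as a result about that list. The median log2 differences of the MHC, immediate-early, quiescence, cyclin and glycolysis lists were 0.07, 0.08, 0.15, 0.16 and 0.05, and each was below 0 with library totals alone.

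**Figure D4:**
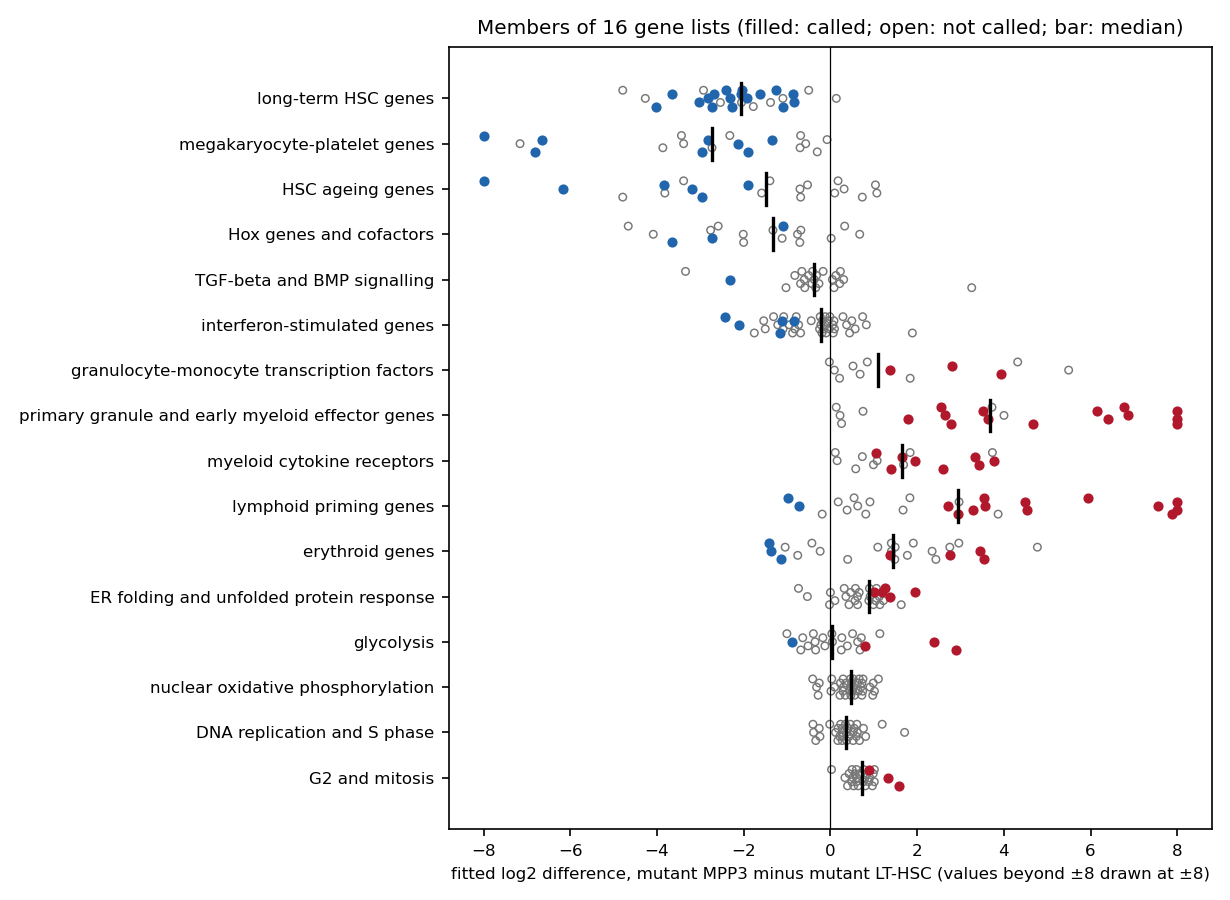
Fitted log2 difference, mutant MPP3 minus mutant LT-HSC, of each tested member of 16 gene lists, with called members filled (red higher, blue lower), the others open, a bar at the list's median, and values past 8 in either direction drawn at 8. The granule list, at a median of 3.68, and the megakaryocyte list, at -2.73, lie at opposite ends, while the replication list has a median of 0.36.

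Of the other mutant populations, ST-HSC lay nearer LT-HSC for most called genes. Mutant MPP4 lay nearer MPP3 for most genes that fell and was split evenly for those that rose. On the log2(CPM + 1) scale the mean of mutant ST-HSC lay nearer LT-HSC than MPP3 for 196 of the 252 genes called higher and for 135 of the 184 called lower. Mutant MPP4 lay nearer LT-HSC for 127 and nearer MPP3 for 125 of the genes that rose, and nearer MPP3 for 140 of those that fell. Mpo was at 40.2 to 158 CPM in ST-HSC and 458 to 820 CPM in MPP4, both between LT-HSC and MPP3. Elane was at 0.376 to 18.1 CPM in ST-HSC and 1.14 to 21.7 CPM in MPP4, so MPP3 stood alone with at least 376 CPM. Mecom in ST-HSC, at 65.4 to 116 CPM, was above all MPP3 libraries and below all LT-HSC libraries.

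The same population difference was then set beside that of the control mice, in a fit of all 29 libraries. Of 15915 genes tested there, 208 (1.31%) were called between control MPP3 and control LT-HSC, 97 higher and 111 lower. The control difference had the same sign for 207 of the 252 genes called higher in the mutant (82.1%) and for 183 of the 184 called lower (99.5%), against 64.3% of all tested genes. Of these genes, 53 of those called higher and 64 of those called lower were called in the control step, and none was called in the opposite direction. The median log2 difference of the genes that rose was 3.45 in the mutant and 1.00 in the control, and that of the genes that fell was -2.09 and -1.46. These genes were chosen by their calls in the mutant, which enlarges the mutant medians and not the control ones, so the medians are a description. The test of the difference between the 2 steps called 0 genes (0.0%) with edgeR, with 963 at an unadjusted p below 0.05, 65 called by DESeq2, 13 by edgeR with no filter on low counts and 1 by limma.

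**Figure D5:**
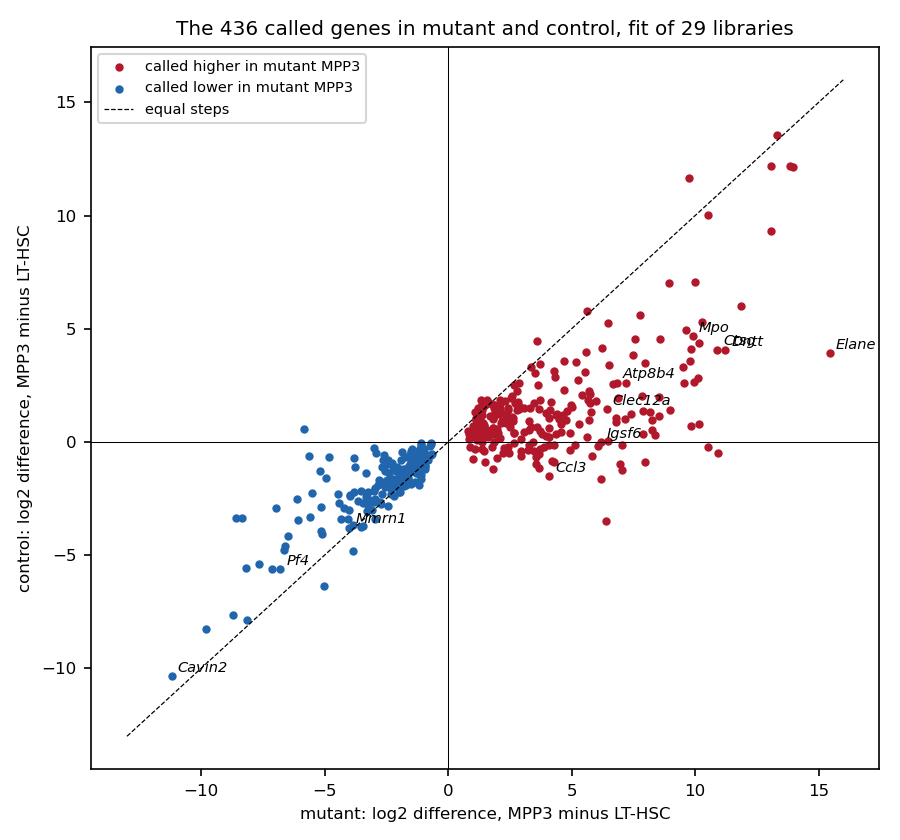
Log2 difference between MPP3 and LT-HSC in the mutant (horizontal axis) and in the control (vertical axis), from the fit of 29 libraries, for the genes called higher (red) or lower (blue) in mutant MPP3, with the line of equal steps dashed. The medians were -2.09 and -1.46 for genes that fell and 3.45 and 1.00 for genes that rose, with the genes chosen by their mutant values, and Elane, Igsf6 and Ccl3 lie far below the line, though the edgeR test of 29 libraries called 0 differences.

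The 6 genes with the smallest p for a difference between steps shared an adjusted p of 0.0908, and each was higher in control LT-HSC replicates 1 to 3 than in replicate 4. Igsf6 was at 143, 57.5, 25.8 and 13.4 CPM in control LT-HSC replicates 1 to 4, against 0.701 to 1.84 CPM in mutant LT-HSC (difference of steps 6.18 ± 1.2 on the log2 scale, adjusted p = 0.0908). Clec12a was at 122, 42.4, 17.2 and 3.24 CPM there, Cd53 at 126, 78.5, 66.9 and 13.7 CPM and Ccl3 at 96.3, 83.3, 20.8 and 0.564 CPM. Cxcl2, a neutrophil chemokine, was at 68.6, 63.0, 17.5 and 3.53 CPM, and the unmatched gene ENSMUSG00000089672 was at 145, 272, 63.8 and 8.04 CPM. Mpo was at 737, 246, 79.2 and 5.08 CPM in control LT-HSC and at 5514, 7921 and 7122 CPM in control MPP3 (difference of steps 5.22 ± 1.11, adjusted p = 0.134), and Elane was at 114, 44.9, 40.6 and 0 CPM and at 546, 827 and 919 CPM (adjusted p = 0.155). In control LT-HSC replicates 1 to 3 the neutrophil marker list summed to 12830, 4520 and 1927 CPM and the red cell list to 29890, 6071 and 9086 CPM, against 110 and 572.5 CPM in replicate 4. Without replicates 1 to 3, the libraries high in these genes, control LT-HSC is a single library and the difference of steps is a value with no replicate check: it was -0.49 for Mpo, -0.14 for Elane and -0.83 for Ccl3, and above 0 for the other 7 of the 10 genes with the smallest p, among them Igsf6 at 4.02 and Cxcl2 at 2.59. Without replicate 4, the library low in these genes, 46 genes were called, each with a higher step in the mutant. Igsf6, Ccl3, Mpo and Elane were called there, by DESeq2 and with no filter on low counts.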

How the data were processed

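RNA-seq of sorted bone marrow populations was analysed from the table of expected counts per gene that the authors deposited, made with RSEM 1.2.12, Bowtie2 2.2.0, SAMtools 0.1.18 and edgeR 3.5.3 on GRCm38, per the submitters' processing notes, which give no roles. Rounding to whole numbers changed 0 values, and 0 columns were left unmapped. Symbols came from GENCODE vM21 (37607 of 38924 genes matched), promoters from RefSeq GRCm38.p6. In R 4.3.3, edgeR 4.0.16 was fitted to the 15 mutant libraries with 4 group means, TMM scaling, filterByExpr (minimum count 10, minimum total 15) and a quasi-likelihood test, with Benjamini-Hochberg adjustment at 0.05. The difference between the mutant and control steps was tested in all 29 libraries. Alternatives used DESeq2 1.42.0, limma 3.58.1, other scalings and filters, replicate blocks, header prefixes and left-out libraries. A fold against a group with no counts was computed from 3 counts per library and is a lower bound, and a ratio over 1 to 3 counts has an exact Poisson counting interval.

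The comparison, the gene lists and the rules were chosen with earlier results of these data known. Genes were named by rule: the 12 higher and 12 lower with the smallest p, no overlap and at least 10 CPM in a group, up to 4 called members of each list in each direction, the label checks, called or most abundant markers, the genes with the smallest p for the difference of steps, and the 5 most abundant called in each direction. Prtn3, Ly6c2, Plac8, Nkg7, S100a8, Cebpa, Csf3r, Gata2, Gata1, Klf1, Igll1, Vpreb1, Lef1 and Mki67 were chosen after their values were seen. The script was tested on simulated data. A few genes that the rule names are not reported here.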

Additional observations from a re-analysis of the deposited data

Results flagged for a closer look

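In the 4 libraries of mutant MPP3, 9 of 131 values tested had 1 library farther from the others than Dixon's test allows at its 95% limit, and chance gives about 1 in 20. In 4 of the 9 the library apart was replicate 1: the first principal component was -161.5, Dnmt3a was at 222.3 CPM, Cd68 at 98.26 CPM and Tek at 12.24 CPM. Replicate 2 was apart for Prg2, highest at 153.0 CPM, and for Adgrg1, lowest at 799.2 CPM. Il7r was highest in replicate 3, at 28.16 CPM. Replicate 4 was apart for Ctss, highest at 71.54 CPM, and for Sphk1, lowest at 7.401 CPM.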

How the results depend on the processing

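Of 107 called genes named in the text, 17 kept the call under all 25 alternatives, 1 more (Igkv15-103) under the 24 that tested it, and 0 changed direction. The number of genes called moved to 928 with DESeq2, 37 and 86 within the first and second header prefix, and 164 to 369 when 1 library was left out. With a replicate block it was 390 (number in the description), 309 (number in the title) and 257 (the 6 libraries of shared numbers). In these blocks 17, 30 and 35 of the 107 named genes lost the call, among them Hlf, Ifi44 and Iigp1 in the last 2. The labels do not say what the number in the description marks. Deviations of libraries that share it correlated at 0.108, 0.011 and 0.057, and those of the other pairs at -0.098 to 0.03, so not every shared number passed 0.1, and 2 of 3 LT-HSC libraries correlated best with their own number. Called list members, 100 in all, moved to 153 with DESeq2, 15 and 31 within the prefixes, and 49 to 86 when 1 library was left out. The difference of steps called 0 genes, 0 with the replicate block, 65 with DESeq2, 13 without a filter on low counts, 1 with limma and 0 to 46 when 1 library was left out. Without the 3 control LT-HSC libraries high in neutrophil genes, a setting added after seeing the data as were the prefixes, 1 control LT-HSC library remains, and its values turned to -0.828 for Ccl3, -0.491 for Mpo and -0.141 for Elane. The other 7 of 10 genes followed stayed above 0 in every alternative. Uncalled genes that changed sign were Dnmt3a (-0.187 with library totals alone, -0.142 with limma, -0.039 and -0.042 with the replicate block by description and by title, -0.43 in the first prefix, -0.388 to 0.142 when 1 library was left out, -0.381 without MPP3 replicate 1 and the ST-HSC library that stands apart), Ly6a (-1.06 to 0.282 when 1 library was left out, 0.961 in the first prefix, 0.29 without the 2 libraries that stand apart), Ngp (-1.376 to 0.697 when 1 library was left out, 0.236 in the second prefix) and Gata1 (0.851 in the first prefix). Depth limits genes below about 0.301 to 0.556 CPM, the value of 3 counts.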
